A study of Homo sapiens with 9 samples.

Results

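The genes described here were the filamin FLNA, the alpha-actinins ACTN1 and ACTN4, talin (TLN1), vinculin (VCL), zyxin (ZYX), drebrin (DBN1), transgelin (TAGLN) and the myosin light chain MYL9, a set of 9 actin-binding and adhesion genes. The set was chosen by name around FLNA and DBN1, which were selected in part on their values in these libraries. Both were abundant transcripts that were higher with miR-16 than with miR-CTR. The levels and differences of FLNA and DBN1 are therefore descriptions. Of the 9 genes, 8 had a row among the 14839 genes of the table and MYL9 is not analysed here. The study transfected MP41 cells, a GNA11-mutated uveal melanoma line grown in RPMI-1640 with fetal bovine serum, with a synthetic miR-16 or with a control miRNA (miR-CTR), each at 66 nM with Lipofectamine RNAiMAX. PolyA RNA was sequenced in 9 libraries, of which 1 was the starting point (0 h) and 4 per mimic were taken 6, 12, 24 and 48 h later. The label of the 0 h library names the control miRNA, and that library was read here as the state before transfection. Each condition was 1 library of 1 line, so no difference below has a replicate check and no p-value is given. The table numbers its time points without giving hours, and the numbers were read in rising order as 0, 6, 12, 24 and 48 h. The numbering skips a value between those read as 12 and 24 h, so the hours of the late libraries rest on that reading.

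Filamins are long rod-like proteins that cross-link actin filaments into networks and tie them to the cytoplasmic tails of integrins. At focal adhesions talin binds the integrin tail and actin, stretched talin recruits vinculin, and zyxin joins adhesions that are under tension, while alpha-actinins bundle the filaments that end there. Drebrin binds along the side of actin filaments, transgelin is a calponin-family actin-binding protein of contractile cells, and the regulatory light chain encoded by MYL9 controls myosin II. Many genes of this kind, FLNA, VCL, ZYX and TAGLN among them, are targets of serum response factor (SRF) with its actin-sensing cofactors. miR-16 is a microRNA that pairs with its targets mainly through its seed, the bases 2 to 8 from its 5′ end.

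The mature miR-16 sequence of RefSeq, on GRCh38 at chr13:50049027-50049048 (minus strand) and chr3:160404754-160404775 (plus strand), is shown here because the sites below are matches to it, with the seed in capitals.
hsa-miR-16-5p: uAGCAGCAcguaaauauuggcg
A seed match in an RNA reads TGCTGCT in DNA letters. The search also took TGCTGCT followed by A, and GCTGCTA without the leading T, on the transcript strand only. Among 11609 genes of the table with 1 complete protein-coding transcript in GENCODE release 29 (GRCh38), each taken with its longest 3′UTR, 29.1% held at least 1 such match in that 3′UTR. Of the 8 genes of the set, 3 did (VCL, TLN1 and ZYX), and FLNA, DBN1, ACTN1, ACTN4 and TAGLN did not. With 8 genes, 3 with a match is not far from the share of all genes, so nothing is read from this split. The 3′UTR sites are shown with 10 bases before the match and 5 after it, the match in capitals. They are all the 3′UTR matches found in the set.
VCL, chr10:74118708-74118715, plus strand: aagtgagcttTGCTGCTAcaggg
VCL, chr10:74119374-74119380, plus strand: agaattctagTGCTGCTgaaga
VCL, chr10:74121151-74121157, plus strand: aaaggccaagGCTGCTActgaa
ZYX, chr7:143390947-143390953, plus strand: ccaggtttagTGCTGCTgcttt
ZYX, chr7:143390950-143390956, plus strand: ggtttagtgcTGCTGCTttcac
TLN1, chr9:35697079-35697085, minus strand: agtgtcgttcTGCTGCTgctgg
TLN1, chr9:35697076-35697082, minus strand: gtcgttctgcTGCTGCTgggac
The VCL sites lie apart in a 3′UTR of 3194 bases, and the first of them is a full seed match followed by A. In ZYX the 2 matches overlap in a 3′UTR of 429 bases, and so do the 2 of TLN1 in 843 bases. FLNA has a 3′UTR of 323 bases and DBN1 one of 825 bases. Within coding regions 37% of the same genes held a match, and 5 of the 8 genes of the set did. TLN1 had 4 such matches, ACTN1 and ACTN4 had 2 each, and FLNA and VCL had 1 each. DBN1, ZYX and TAGLN had none. A match is a run of letters and was not tested for binding.

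The genes differed widely in level at 0 h. Levels between genes were compared only per transcript length, as recovered reads per kilobase of the chosen transcript, scaled to the library total (RPKM). At 0 h ACTN1 was highest at 108 RPKM, followed by DBN1 at 50.8, ACTN4 at 46.5, FLNA at 33.8, TLN1 at 26.7, ZYX at 21.7 and VCL at 14.7 RPKM, with TAGLN far below at 0.313 RPKM. ACTN1 lay between 84.8 and 110 RPKM over the 9 libraries and did not overlap the gene below it. From DBN1 down to VCL the ranges of neighbouring genes overlapped, except those of TLN1 (23.2 to 32.8) and ZYX (18.6 to 23.1). The order depends on the length used: over all annotated exons ACTN1 came to 38.3 RPKM at 0 h, ACTN4 to 37.8 and DBN1 to 29.7, so that ACTN1 no longer stood apart and DBN1 and ACTN4 changed places. FLNA ran from 11.2 to 37 RPKM over the libraries. TAGLN was counted with 11 to 30 reads per library and the other genes with at least 1044.

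Values below are on the deposited scale, log2 of normalised reads plus 1, and a difference is the miR-16 value minus the miR-CTR value at the same time. The early window is the mean difference of 6 and 12 h, and the late window that of 24 and 48 h. A gene was called past 0.5 in either direction, a fold of 1.41, which is the threshold the study used. Standard errors (SE) come from the recovered read numbers and cover counting error only.

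FLNA (ENSG00000196924.15, chrX:154348524-154374638, minus strand) encodes the most widely expressed filamin, and its level parted between the mimics after 12 h. It stood at 12.69 at 0 h. With miR-CTR it was 12.82, 12.57, 12.14 and 11.12 at 6, 12, 24 and 48 h. With miR-16 it was 12.84, 12.54, 12.40 and 12.21 at those times. The mimics were thus within 0.03 of each other at 6 and 12 h, and both series ended below 0 h, the control series further. The difference was 0.26 (SE 0.03) at 24 h and 1.09 (SE 0.036) at 48 h, a fold of 2.13, so that 1 time point carried most of the late mean of 0.675 (SE 0.023). In the miR-CTR library of 48 h the FLNA level was 33.7% of that at 0 h, and in the miR-16 library 71.7%. Over the whole table, 258 of 14839 genes had a larger difference at 48 h than FLNA.

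**Figure D1:**
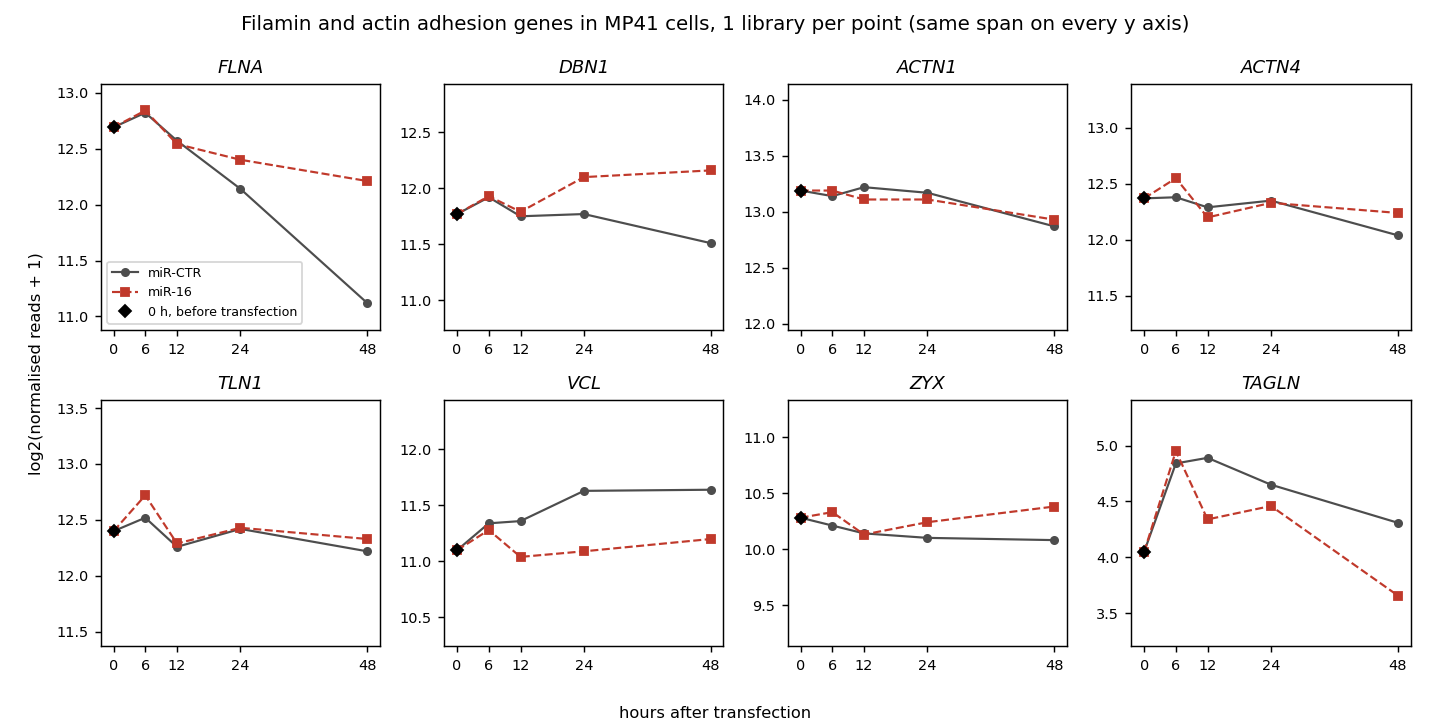
Level of each gene (y axis, log2 of normalised reads plus 1, with a span of equal size in every panel) against hours after transfection (x axis) with miR-CTR (grey circles), miR-16 (red squares) and at 0 h (black diamond), 1 library per point. FLNA fell to 11.12 with miR-CTR and to 12.21 with miR-16 at 48 h, DBN1 ended at 11.51 and 12.16, and VCL lay higher with miR-CTR at every time.

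FLNC, the muscle filamin, had a late difference of 0.515 (SE 0.026), from 0.24 at 24 h and 0.79 at 48 h. FLNC, too, was among transcripts that the study picked partly for higher levels with miR-16, so its difference is a description. Unlike FLNA, FLNC ended above its 0 h level of 11.65 with miR-16 (12.05 at 48 h) and below it with miR-CTR (11.26). Per length FLNA was the more abundant at 0 h, at 33.8 RPKM against 15.5 for FLNC. FLNC carried no miR-16 seed match in its 3′UTR.

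DBN1 (ENSG00000113758.13, chr5:177456608-177474401, minus strand), the drebrin gene, also parted after 12 h, but upwards from its starting level. It stood at 11.77 at 0 h. In time order it was 11.92, 11.75, 11.77 and 11.51 with miR-CTR. With miR-16 it was 11.93, 11.79, 12.10 and 12.16. The early difference was 0.025 (SE 0.024), and the differences of 24 and 48 h were 0.33 and 0.65 (each with an SE of at most 0.034). Its late mean of 0.49 (SE 0.024, a fold of 1.40) lay just under the threshold, as that of FLNC lay just over it. DBN1 was higher with miR-16 at all 4 times, as was TLN1, but only by 0.01 (SE 0.034) at 6 h and 0.04 (SE 0.033) at 12 h. The miR-16 library of 48 h held 131% of the 0 h DBN1 level against 83.5% in the miR-CTR library.

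The alpha-actinins, which bundle actin filaments, showed little difference between the mimics. ACTN1 lay between 12.87 and 13.22 with miR-CTR and between 12.93 and 13.19 with miR-16, and its differences of −0.06 at 24 h and 0.06 at 48 h gave a late mean of 0.00 (SE 0.016). ACTN4 lay between 12.04 and 12.38 with miR-CTR and between 12.20 and 12.55 with miR-16, with a late difference of 0.09 (SE 0.021). Both were lowest or nearly lowest at 48 h in either series: ACTN1 changed from 0 h by −0.32 with miR-CTR and by −0.26 with miR-16. The differences between the mimics at single times reached 0.11 for ACTN1 and 0.20 for ACTN4 in size and did not keep 1 direction.

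Talin, vinculin and zyxin, the plaque proteins that hold 3′UTR matches to the miR-16 seed, differed from one another. TLN1 stood at 12.40 at 0 h, lay between 12.22 and 12.52 with miR-CTR and between 12.29 and 12.72 with miR-16, and had a late difference of 0.06 (SE 0.02). Its largest difference was 0.20, at 6 h. VCL (ENSG00000035403.17, chr10:73995193-74121363, plus strand) stood at 11.10 at 0 h. In time order it was 11.34, 11.36, 11.63 and 11.64 with miR-CTR. With miR-16 it was 11.28, 11.04, 11.09 and 11.20. All 4 miR-16 values were thus lower than all 4 miR-CTR values, which held for VCL alone of the 8 genes, and for 3.75% of all genes (3.81% had the opposite order). The miR-16 series stayed within 0.18 of the 0 h level, and the miR-CTR series rose above it by up to 0.54. The differences at the 4 times were −0.06, −0.32, −0.54 and −0.44, and the late mean of −0.49 (SE 0.028) lay just inside the threshold. ZYX stood at 10.28 at 0 h and ended at 10.08 with miR-CTR and 10.38 with miR-16, with a late difference of 0.22 (SE 0.042). Of the genes with a 3′UTR match, VCL thus had a late difference below 0, and ZYX and TLN1 had late differences above 0. Across the 11609 genes the median late difference was −0.085 with a 3′UTR match and 0.015 without one.

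TAGLN, a marker of contractile cells, was near the lower end of the table, with 2.37% of genes below it at 0 h. Its value was 4.05 at 0 h, between 4.31 and 4.89 with miR-CTR and between 3.66 and 4.95 with miR-16. The late difference of −0.42 had a counting SE of 0.33, so a difference was not detectable at this depth, and after rescaling the recovered reads to the library total it was −0.179.

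**Figure D2:**
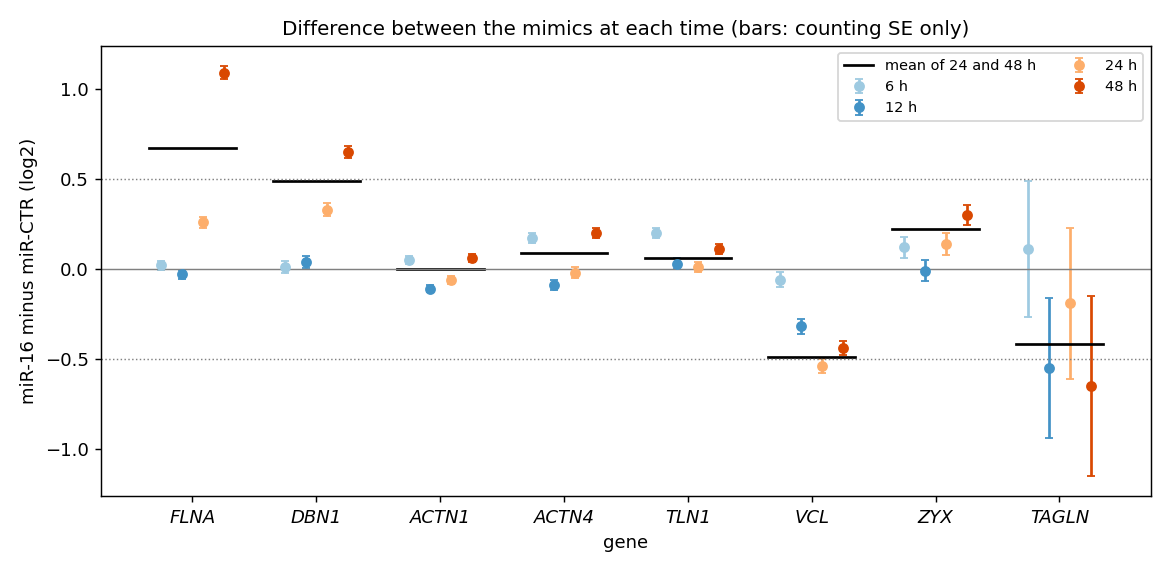
Difference between miR-16 and miR-CTR (y axis, log2) for each gene (x axis) at 6, 12, 24 and 48 h, with counting SE as bars, the late mean as a black line and the threshold of 0.5 dotted. FLNA (1.09) and DBN1 (0.65) stood highest at 48 h, VCL was below 0 at all 4 times, and the bars of TAGLN were the widest.

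In the late window 1 of the 8 genes was called higher with miR-16 (FLNA) and none lower, where 7.76% of all genes were called higher and 5.73% lower. Since FLNA was selected on this contrast, nothing is read from that count. The median late difference of the 8 genes was 0.075, beside 0.005 over all genes. It includes the selected FLNA and DBN1, so nothing is read from it either. In the early window none of the 8 was called, where 2.04% of all genes were called higher and 1.45% lower, and the early differences ran from −0.22 for TAGLN to 0.115 for TLN1.

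Against the 0 h library, the late mean of miR-CTR changed by −1.06 for FLNA (SE 0.025) and by 0.535 for VCL (SE 0.036), and no other of the 8 genes passed the threshold. Among all genes 11% were higher and 9.79% lower in that comparison, and 208 genes fell further than FLNA. The late mean of miR-16 passed the threshold against 0 h for none of the 8 genes, where 14.1% of all genes were higher and 11.7% lower. There the change was −0.385 for FLNA, 0.36 for DBN1 and 0.045 for VCL. Both comparisons use the same 0 h library and are given side by side for that reason. FLNA and VCL thus differed between the mimics mainly in how far the miR-CTR libraries moved from 0 h, and DBN1 in how far the miR-16 libraries did. Time in culture and transfection cannot be told apart in these series, because no library without a mimic was taken after 0 h. The 0 h library is itself only read as free of a mimic, since its label names miR-CTR.

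Among the genes with the course most like FLNA, by Pearson correlation of log2 values over the 9 libraries among the 11129 genes above the lowest 25% of mean expression, were GPER1 (r = 0.978), a G protein-coupled estrogen receptor, and CYR61 (r = 0.978), a secreted matricellular protein. GPER1 stood at 9.11 at 0 h, 8.36 with miR-CTR at 48 h and 8.92 with miR-16 at 48 h. Those nearest to DBN1 were the phosphatase CPPED1 (r = 0.981), the tyrosine phosphatase PTPN14 (r = 0.975) and the aminopeptidase DNPEP (r = 0.955). CPPED1 stood at 9.61 at 0 h, 9.42 with miR-CTR at 48 h and 10.02 with miR-16 at 48 h. The 9 points of such a correlation are successive times of 2 series with a shared start, so they are no independent samples. Within the set, ACTN4 and TLN1 followed each other most closely (r = 0.90), and FLNA and VCL had the most opposed courses (r = −0.62).

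**Figure D3:**
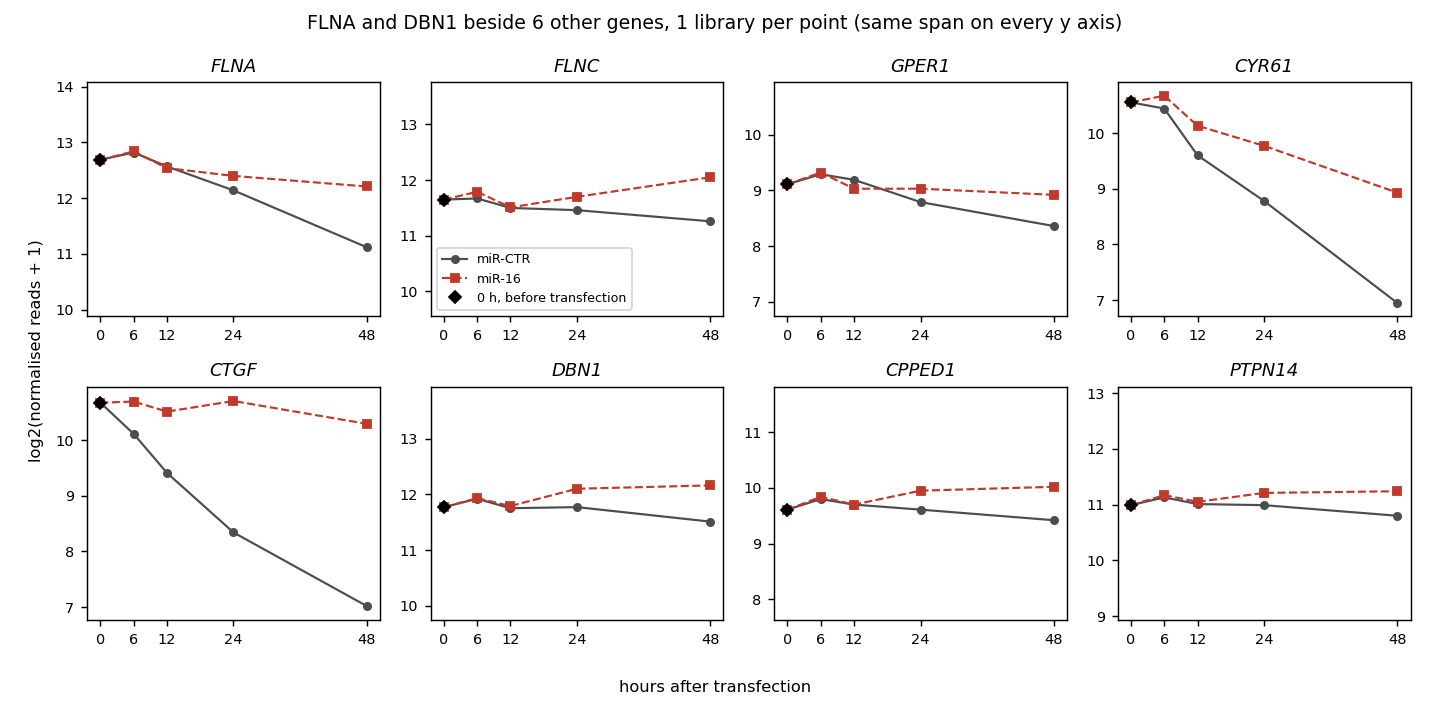
Level (y axis, log2 of normalised reads plus 1, with a span of equal size in every panel) against hours after transfection (x axis) of FLNA, FLNC, GPER1, CYR61, CTGF, DBN1, CPPED1 and PTPN14 with miR-CTR (grey circles) and miR-16 (red squares), 1 library per point. CYR61 and CTGF fell to 6.95 and 7.02 with miR-CTR at 48 h, GPER1 ended at 8.36 with miR-CTR and 8.92 with miR-16, and CPPED1 ended at 9.42 and 10.02.

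Around these genes, 7 lists of actin and adhesion genes held 132 further genes, of which 118 had values. In the late window 6 of the 118 were called higher (5.08%) and 6 lower (5.08%), with a median of −0.008. These shares lay below the 7.76% and near the 5.73% of all genes. FLNC is 1 of the 6 called higher, and the lists were chosen with earlier results of these data known. That count thus rests in part on selection. In the early window 1 of the 118 was called, CTGF.

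The list of the serum response factor module held the largest late differences above 0. Of its 16 genes with values 4 were higher in the late window (FLNA, CSRP2, CTGF and CYR61) and none lower, with a median of 0.13. Without FLNA, which was selected on this contrast, 3 of 15 were higher, beside 7.76% of all genes, and the median was 0.105. The list itself was chosen with earlier results of these data known, so nothing is read from these shares. The matricellular genes CTGF and CYR61, also known as outputs of the Hippo pathway, had late differences of 2.815 (SE 0.076) and 1.485 (SE 0.081). CTGF went from 10.67 at 0 h to 7.02 with miR-CTR and 10.29 with miR-16 at 48 h. CYR61 went from 10.55 to 6.95 with miR-CTR and 8.93 with miR-16. CSRP2, a LIM protein of actin filaments, was 1.02 higher (SE 0.026), from 11.30 at 0 h to 11.26 with miR-CTR and 12.34 with miR-16 at 48 h. The levels of SRF itself and of its cofactors MKL1 and MKL2 had late differences of 0.08, −0.005 and −0.13. VCL (−0.49), which belongs to the same list, had the opposite sign.

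Of the remaining lists, only those of cross-linkers and of plaque genes had calls in both directions. Among all genes 7.76% were called higher and 5.73% lower. Among 22 actin cross-linkers and side binders, SYNPO, a synaptopodin gene of low level, had a late difference of 0.53 (SE 0.13), and ANLN and PLS1 had −1.205 and −0.525. Among 36 focal adhesion plaque genes, GIT2, an adaptor that binds paxillin, had a late difference of 0.69, and the LIM protein genes LIMS1 and TES had −0.565 and −0.54. PXN, paxillin, had a late difference of −0.305. Among 11 genes of actins, tropomyosins, calponins and transgelins, TPM3, a tropomyosin, had a late difference of −0.705. Among 17 genes of non-muscle myosin and its regulators, CIT had a late difference of −0.53. ANLN (anillin) and CIT (citron kinase) act in cytokinesis. None of 27 genes of actin monomer and filament turnover was called. The cytoplasmic actins ACTB and ACTG1 had late differences of −0.05 and −0.055, and ACTB changed from 0 h by −0.66 in the late miR-CTR mean and by −0.71 in the late miR-16 mean.

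**Figure D4:**
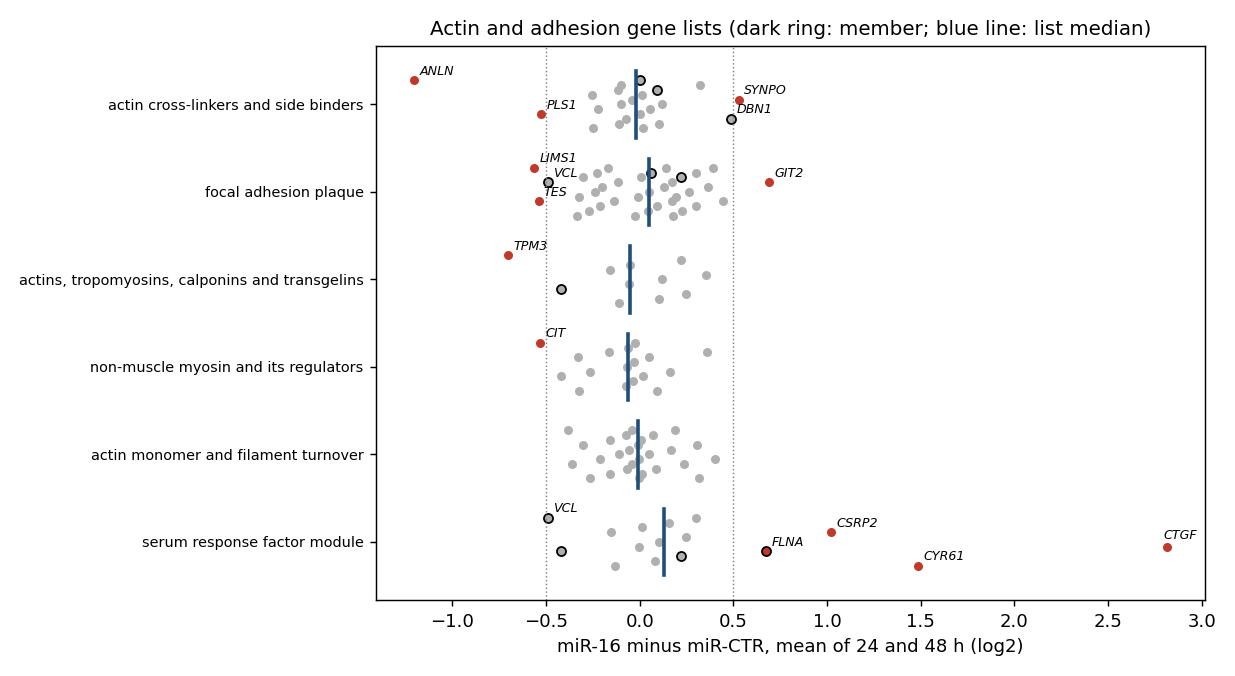
Late difference (x axis, miR-16 minus miR-CTR, mean of 24 and 48 h, log2) of each gene of 6 of the lists (y axis), with genes past 0.5 in red, genes of the set ringed, the median of each list as a blue line and the threshold dotted. The list medians lay between −0.06 and 0.13, and CTGF (2.815) and ANLN (−1.205) were the extremes.

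For the 7 members with an entry in the RefSeq promoter table (GRCh38.p14, 250 bases before to 50 after each start), the windows were searched on both strands for the CArG box, the SRF element, and for GGAATG, the core of the TEAD element. A CArG box was present in 2 of the 12 promoter windows of these members (FLNA and ACTN1) and in 1.29% of all 35116 promoters. The boxes are shown with 10 bases on either side, the box in capitals, since they are the only ones found in these windows. The FLNA box lies just before the annotated gene, and the ACTN1 box inside it, before an internal start. The 2 boxes are thus not alike in place, and use of either box was not tested.
FLNA, chrX:154374719-154374728, minus strand: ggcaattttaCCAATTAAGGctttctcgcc
ACTN1, chr14:68977728-68977737, minus strand: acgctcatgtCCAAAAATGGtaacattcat
FLNA was higher by 0.675 and ACTN1 by 0.00 in the late window. Since FLNA was selected on this contrast, nothing is read from these values beside the boxes. GGAATG or its reverse complement was present in 2 of the 12 windows (ACTN1 and VCL) and in 14% of all promoters.

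The libraries held 20270000 to 27370000 recovered reads, with median gene values between 9.13 and 9.17. The genes CCND1, CCND3 and WEE1, known targets of miR-16, had late differences of −0.63, −1.02 and −1.055, and of the 10 known targets listed as a check of the mimic 6 were called lower and none higher. All 10 melanocyte lineage markers had values, between 8.66 (S100B) and 17.88 (TYRP1) at 0 h, with summed normalised reads of 401438 to 510930 per library. Of 10 fibroblast markers 5 had values, with summed levels of 505 to 809 per library (700 with miR-CTR and 635 with miR-16 at 48 h), and 2 of the 5 were called higher late and 2 lower. Their late differences were 1.795 for PDGFRB, 0.82 for PDGFRA, −1.35 for FAP and −0.81 for LUM, all but LUM from under 20 reads in at least 1 library. Of 10 smooth muscle markers 4 had values, with summed levels of 1541 to 1936 per library (1541 with miR-CTR and 1644 with miR-16 at 48 h). Their part in the differences above was not tested. In bulk RNA, fewer cells of a type and less RNA per cell cannot be told apart.

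Whether counting used strand is not given in the sources used here, and some of the genes overlap others on the opposite strand. VCL shares 1109 exonic bases with AP3M1, which had a late difference of −0.125. TAGLN shares 446 with PCSK7, whose value of 10.19 at 0 h was far above the 4.05 of TAGLN, and whose late difference was 0.065. ACTN4 shares 868 with CAPN12 and ZYX shares 82 with EPHA1, and neither of these other genes had values. TLN1 shares 61 with CREB3, which had a late difference of 0.095. FLNA shares 44 exonic bases with an antisense gene, and DBN1 overlaps none.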

How the data were processed

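The deposited table holds, per the file itself, log2 values (log2 of size-normalised reads plus 1, to 2 decimals) of 14839 genes in 9 libraries. The submitters' processing notes name FastQC, STAR 2.4.0a, featureCounts, Subread 1.5.0-p3 and hg38/GRCh38. The normalization tool, the annotation and the filter on low genes are not given in the sources used here. What 1 read is worth in each library (0.853 to 1.149) was recovered from values up to 20, of which all 521 to 689 per library were whole multiples within the rounding of the table. These read numbers gave the RPKM values and the Poisson SE of each log2 difference, which cover counting error only.

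With 1 library per condition no test was run. Differences were taken per time and averaged over 6 and 12 h (early) and over 24 and 48 h (late), and called past 0.5. The members and lists were chosen with earlier results of these data known. Named were the members, list genes past 0.5 late, FLNC, ACTB, ACTG1, PXN, SRF, MKL1, MKL2, the 3 nearest genes of FLNA and of DBN1, CCND1, CCND3, WEE1 and marker genes, except some genes that are not reported here. Alternatives were another threshold, normalization, pseudocount, filter, window and reference. Seed matches, lengths and coordinates came from GENCODE 29, promoters and miR-16 from RefSeq. The Python scripts were tested on simulated data.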

Additional observations from a re-analysis of the deposited data

Results flagged for a closer look

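Of 27 genes examined (the 8 members and the named genes of the lists), 1 moved one way at both early times and the other way at both late times. SYNPO differed by −0.48 at 6 h and −0.27 at 12 h and by 0.34 at 24 h and 0.72 at 48 h, so that its late difference of 0.53 followed an early difference of −0.38. The change of sign was not tested, since each time has 1 library per mimic. No group had enough libraries for a search for samples far from the others.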

How the results depend on the processing

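No paired analysis was possible because each condition is 1 library and the labels carry no replicate numbers. The number of the 8 genes called in the late window (1, FLNA) became 3 with quantile normalization, where DBN1 reached 0.507 and TAGLN −0.51, and 2 with recovered reads rescaled to the library total. It was 0 when both times had to pass, 3 with the later time alone (FLNA, DBN1 and TAGLN), 0 with the 0 h library as reference, and 1 with the earlier time alone, where the gene was VCL. The 0 h reference replaces miR-CTR by the 0 h library, so it gives the change of miR-16 from 0 h and not a difference between the mimics. For FLNA that change was −0.385, as given above. In the early window the number called (0) became 1 with the later time alone and 1 with the 0 h library as reference, each time TAGLN. The number called in miR-CTR late against 0 h (2) became 1 at a threshold of log2(1.5). The number of other actin list genes called (12) became 6 at that threshold, 7 when both times had to pass and 20 with the 0 h reference. The remaining alternatives left these numbers within 1.5 times, and the number called in miR-16 late against 0 h was 0 under all 9 of its alternatives. Across the scalings FLNA stayed between 0.674 and 0.703, DBN1 between 0.489 and 0.507 and VCL between −0.49 and −0.455, while TAGLN ran from −0.51 to −0.179. Read depth limits TAGLN, and the lack of replicates limits every difference.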
